A study of Mus musculus with 6 samples.

Results

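Matricellular proteins are secreted into the space around cells, where they tune adhesion and growth factor signals, and for the most part do not build the matrix scaffold themselves. The set described here holds 10 genes of this kind: the thrombospondins Thbs1, Thbs2 and Thbs3, Sparc, Tnc, Postn, Fn1, Spp1, Ccdc80 and Fbln2. They were found by symbol in the deposited count table, 10 of 54532 genes. Fn1 encodes fibronectin, which is also a structural fibril, and Fbln2 encodes fibulin-2, a binding partner of fibronectin and of elastic fibres.

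The RNA came from TM3 cells, an established mouse cell line labelled as Leydig cells of the testis, the cells that make androgens. One group, of 3 libraries, has the genotype label A20 overexpression, and the other, also of 3 libraries, is labelled as the wild-type overexpression control. A20 is the ubiquitin-editing product of Tnfaip3, which restrains NF-kB signalling. All cells were grown in the same medium with fetal bovine and horse serum, and serum itself carries fibronectin protein, which RNA counts do not register. The vector, the origin of the A20 sequence, the number of clones and whether the libraries of a group came from separate cultures are not given in the sources used here. The p-values therefore measure the spread between these libraries, which may be technical.

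Thrombospondins bind cell surface receptors, among them CD36, CD47 and integrins, and thrombospondin-1 can release TGF-beta from its latent complex. TGF-beta in turn drives many matrix genes, including Fn1, Tnc and Postn in fibroblasts. In the testis, fibronectin and its relatives lie in the interstitium, where Leydig cells sit, and around the tubules. The comparison asks how overexpression of A20 changes the RNA of these genes.

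Control replicate 1 stood apart from the other 5 libraries, so the members' results are given with and without it. Its labels name the same line, cell type and genotype as the other controls, and whether it shares their stock and passage is not given in the sources used here. Each value from all 6 libraries therefore rests on a control group whose likeness is in doubt. Total counts per library were 13841287 to 16917979. Pearson's r of log2 CPM with the other libraries, across genes, was 0.914 to 0.934 for control replicate 1, against up to 0.987 among the others. The summed level of 9 Leydig cell markers was 5.26 to 7.86 CPM (counts scaled to the library total) in A20-overexpressing libraries, against 2040.4 CPM in control replicate 1 and 3.97 to 6.29 CPM in control replicates 2 and 3. Cyp11a1, Hsd3b1 and Star made up most of the sum in control replicate 1, at 851, 532 and 497 CPM. Of these markers, Hsd3b1, Hsd3b6, Lhcgr and Cyp17a1 had counts in control replicate 1 and none in the other 5 libraries. Hsd3b6, Lhcgr and Cyp17a1 were low there, at 0.977, 7.36 and 1.56 CPM. Hsd17b3 had no count in any library. Tnfaip3 was at 41.0, 33.7 and 43.6 CPM in A20-overexpressing replicates 1, 2 and 3, above the controls at 30.9, 11.9 and 15.2 CPM. Its log2 fold change was 1.08 ± 0.30 (SE, adjusted p = 0.331 in edgeR) with all 6 libraries and 1.51 ± 0.19 (SE, adjusted p = 0.000256) without control replicate 1.

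Thbs2 and Tnc were the members whose RNA was lower in each A20-overexpressing library than in control replicates 2 and 3. Neither passed the test without control replicate 1 (adjusted p = 0.0722 and 0.131 in edgeR). Thbs3 had the fitted change nearest to 0 among the thrombospondins. To show the regulatory sequence of Thbs2, Tnc and Thbs3, the 250 bases before the annotated start are printed below. They come from RefSeq on GRCm38.p6, whose promoter table held 7 of the 10 members. Thbs1, Fn1 and Ccdc80 were not in it. Capitals mark matches to GGG and CC with any 5 bases between them on either strand, a loose form of the NF-kB site, or to TATANA on the coding strand, a TATA-like run. The third motif searched was TGANTCA, the AP-1 site, on either strand. The windows lie at chr17:14694263-14694512 on the minus strand for Thbs2, chr4:64047016-64047265 on the minus strand for the upstream start of Tnc, and chr3:89214930-89215179 on the plus strand for Thbs3.
Thbs2: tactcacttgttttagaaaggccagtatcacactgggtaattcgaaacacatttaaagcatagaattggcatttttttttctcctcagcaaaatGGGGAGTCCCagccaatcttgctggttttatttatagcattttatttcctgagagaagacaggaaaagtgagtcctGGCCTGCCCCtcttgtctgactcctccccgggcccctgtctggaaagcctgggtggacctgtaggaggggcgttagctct
Tnc: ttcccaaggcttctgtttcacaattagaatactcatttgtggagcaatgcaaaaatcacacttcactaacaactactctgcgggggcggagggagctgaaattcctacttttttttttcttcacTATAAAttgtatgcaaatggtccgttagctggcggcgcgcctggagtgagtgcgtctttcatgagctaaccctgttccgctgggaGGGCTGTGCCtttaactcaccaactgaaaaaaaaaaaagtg
Thbs3: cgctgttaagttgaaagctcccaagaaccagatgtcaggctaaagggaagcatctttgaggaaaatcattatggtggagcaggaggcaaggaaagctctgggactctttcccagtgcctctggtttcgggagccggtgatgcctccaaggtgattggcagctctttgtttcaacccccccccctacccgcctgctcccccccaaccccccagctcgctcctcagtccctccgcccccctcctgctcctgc
In the printed windows, Thbs2 held 2 matches to the NF-kB form, Tnc held 1 with 1 TATA-like run, and Thbs3 held neither. Of the member windows not printed, those of Sparc and Fbln2 and 1 of Postn also held 1 match each to the NF-kB form. So did the window of the downstream start of Tnc, which overlaps the printed one and shares this match. That window held 2 TATA-like runs, 1 window of Postn held 3 and 1 of Spp1 held 1. No AP-1 match was present in any of the 10 member windows, and no match overlapped another in the printed ones. Of 32851 promoter windows of the same length, 45.8% held the NF-kB form, 16.4% the TATA-like run and 6.75% the AP-1 site. A match is a description of letters and not of a bound site.

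The members spanned a wide range of levels. On the deposited FPKM scale, which divides counts by gene length, Fn1 and Sparc came first and second in every library. In A20-overexpressing replicates 1, 2 and 3 Fn1 was at 1049, 826 and 1012 FPKM, against 279, 812 and 1113 FPKM in control replicates 1, 2 and 3. Sparc was at 951, 1039 and 992 FPKM in the A20-overexpressing replicates, against 372, 1280.2 and 998 FPKM in the controls. Their order changed between libraries: Fn1 led in A20-overexpressing replicates 1 and 3 and in control replicate 3, and Sparc led in the others. Fbln2 followed at 179 to 221 FPKM in A20-overexpressing libraries and Ccdc80 at 154 to 202 FPKM, next in this order in each of the 6 libraries. Thbs1 came after Ccdc80 in each, at 23.4 to 32.2 FPKM in the A20-overexpressing libraries. Spp1, Thbs3 and Tnc lay close together, at 6.53 to 9.31, 6.23 to 7.71 and 2.42 to 4.34 FPKM in these libraries. Spp1 and Thbs3 overlapped there. In control replicate 3 Tnc, at 11 FPKM, stood above Thbs3 and Spp1. Thbs2 was above Postn alone in each library, at 0.421 to 0.905 FPKM in the A20-overexpressing libraries. The 10 members took 1.81%, 1.54% and 1.82% of all counts in A20-overexpressing replicates 1, 2 and 3, and 0.614%, 1.52% and 1.94% in control replicates 1, 2 and 3. In the counts of the members, Fn1 alone made up 61.2% to 68.2% in the A20-overexpressing libraries and 58.2% to 67.6% in the controls.

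**Figure D1:**
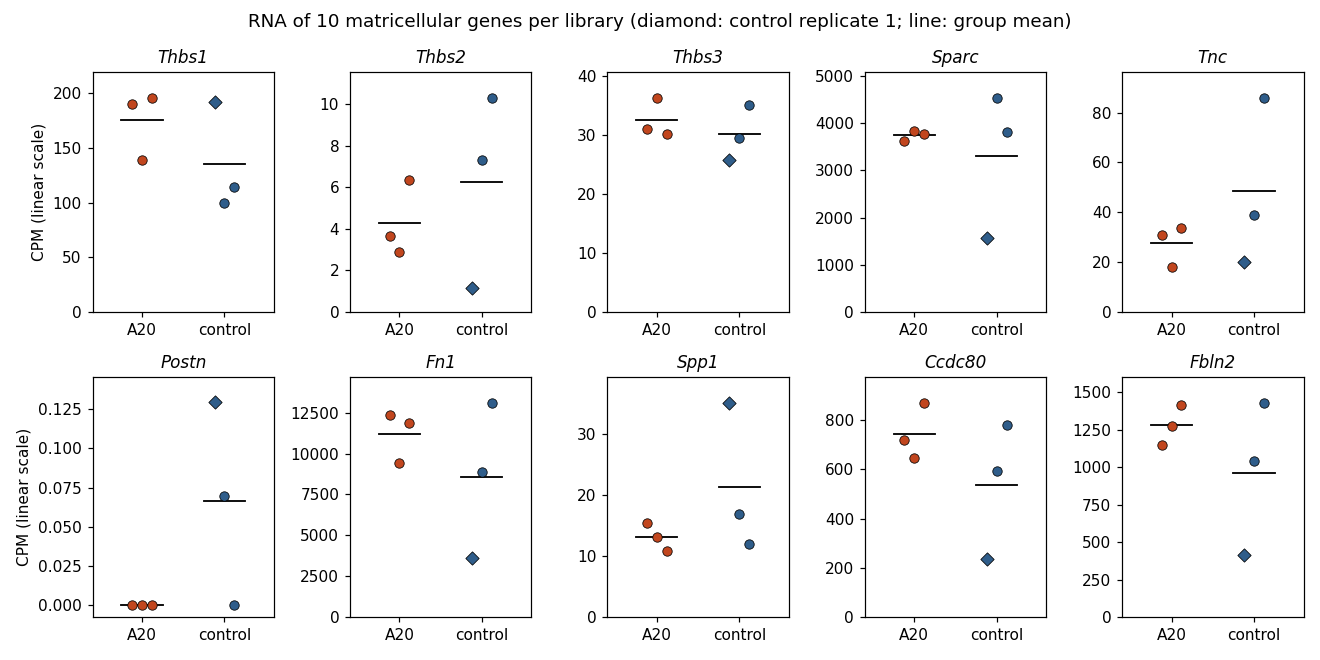
CPM of each member gene (vertical axes, linear, one scale per gene) in the 3 A20-overexpressing libraries, left, and the 3 control libraries, right, with lines at the group means and a diamond for control replicate 1. Thbs1 in the A20-overexpressing libraries (139 to 196 CPM) lies above control replicates 2 and 3 (99.8 and 114 CPM) but not above control replicate 1 (192 CPM), and Fn1, Sparc, Ccdc80 and Fbln2 are lowest in control replicate 1.

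Thbs1 was the one member past the test, and only without control replicate 1. Thrombospondin-1 is a large adhesive glycoprotein that inhibits blood vessel growth and activates latent TGF-beta. Its gene (ENSMUSG00000040152, GRCm38 chromosome 2, 118111876 to 118127133, plus strand) had 190.3, 139 and 196 CPM in A20-overexpressing replicates 1, 2 and 3, against 192, 99.8 and 114 CPM in control replicates 1, 2 and 3. The A20-overexpressing libraries lay above control replicates 2 and 3, and control replicate 1 lay inside their range. In the fit of 6 libraries its log2 fold change stood at 0.42 ± 0.23 (SE), with an adjusted p = 0.57 in edgeR. When control replicate 1 was left out Thbs1 rose 1.6-fold, with a log2 fold change of 0.68 ± 0.16 (SE, 95% interval 0.34 to 1.01, adjusted p = 0.0229 in edgeR). The means were 175 CPM ± 31.6 (SD, n = 3) in A20-overexpressing libraries and 107 CPM ± 9.88 (SD, n = 2) in these controls. The call was lost in edgeR without A20-overexpressing replicate 1 (log2 fold change 0.62, adjusted p = 0.117) or 3 (0.59, adjusted p = 0.143), and on log2(FPKM + 1) in limma (0.64, adjusted p = 0.0916). Beside this 1 call among the 9 members tested, edgeR called 4.6% of 13658 genes without control replicate 1, 1.92% higher and 2.68% lower. At an unadjusted p under 0.05, there were 3 of the 9 members (Thbs1, Thbs2 and Tnc) and 21.6% of all genes. In the 6-library fit edgeR called 0 members, beside 0.015% of 13350 genes, 0.00749% higher and 0.00749% lower. There, 0 members had an unadjusted p under 0.05, beside 10% of all genes, and DESeq2, limma-voom and limma-trend also called 0.

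Thbs2 had the lower values in A20-overexpressing libraries when control replicate 1 was left out, but did not pass. Thrombospondin-2 shares the domain order of thrombospondin-1, including the repeats that bind CD36. The gene (ENSMUSG00000023885, chromosome 17, 14665500 to 14694235, minus strand) had 62, 45 and 96 counts, or 3.66, 2.87 and 6.36 CPM, in A20-overexpressing replicates 1, 2 and 3. In control replicates 1, 2 and 3 it had 18, 105 and 142 counts, or 1.17, 7.32 and 10.3 CPM. Each A20-overexpressing library lay below control replicates 2 and 3 and above control replicate 1. The log2 fold change was -0.56 ± 0.70 (SE, adjusted p = 0.827 in edgeR) with all 6 libraries and -1.06 ± 0.33 (SE, 95% interval -1.76 to -0.37, adjusted p = 0.0722) without control replicate 1. It passed in edgeR with no filter on low counts (adjusted p = 0.0233) or without A20-overexpressing replicate 3 (-1.45, adjusted p = 0.049). Groups free of overlap in CPM were found for Thbs1, Thbs2 and Tnc, 3 of 9 members, when control replicate 1 was left out. The share over all genes tested was 37.9%, with A20-overexpressing libraries higher in 20.7% and lower in 17.2%. In the 6-library comparison the members had 0, beside 16.9% of all genes, 7.62% higher and 9.27% lower.

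Thbs3 showed the smallest change of the 3 thrombospondins. Thrombospondin-3 lacks the repeats that bind CD36. Thbs3 (ENSMUSG00000028047, chromosome 3, 89215180 to 89226837, plus strand) had 31.0, 36.3 and 30.1 CPM in A20-overexpressing replicates 1, 2 and 3, against 25.8, 29.5 and 35.0 CPM in control replicates 1, 2 and 3. The groups overlapped. Its log2 fold change was 0.13 ± 0.20 (SE, adjusted p = 0.863 in edgeR) with all 6 libraries. When control replicate 1 was left out it was -0.02 ± 0.17 (SE, adjusted p = 0.956 in edgeR), with a 95% interval of -0.37 to 0.33. The gene Mtx1 on the opposite strand spans all of Thbs3, at 89209081 to 89227088, and held 304 to 540 counts per library against 396 to 568 for Thbs3. This compares whole gene spans, and the overlap of their exons was not computed. Since the strand setting of the counting is not stated, reads from any exon bases that the pair shares could not be told apart.

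The make-up of thrombospondin RNA, summed in FPKM, followed from these values. Thbs1 made up 81.9%, 74.2% and 81.8% of it in A20-overexpressing replicates 1, 2 and 3, against 85.1%, 69.7% and 68.2% in control replicates 1, 2 and 3. Thbs2 made up 1.37%, 1.33% and 2.3% in the A20-overexpressing replicates, against 0.451%, 4.43% and 5.33% in the controls. The FPKM ratio of Thbs1 to Thbs2 was 59.9, 55.6 and 35.5 in the A20-overexpressing libraries, and 189, 15.7 and 12.8 in the controls. The A20-overexpressing libraries thus lay between control replicate 1 and the remaining controls in all of these measures.

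**Figure D2:**
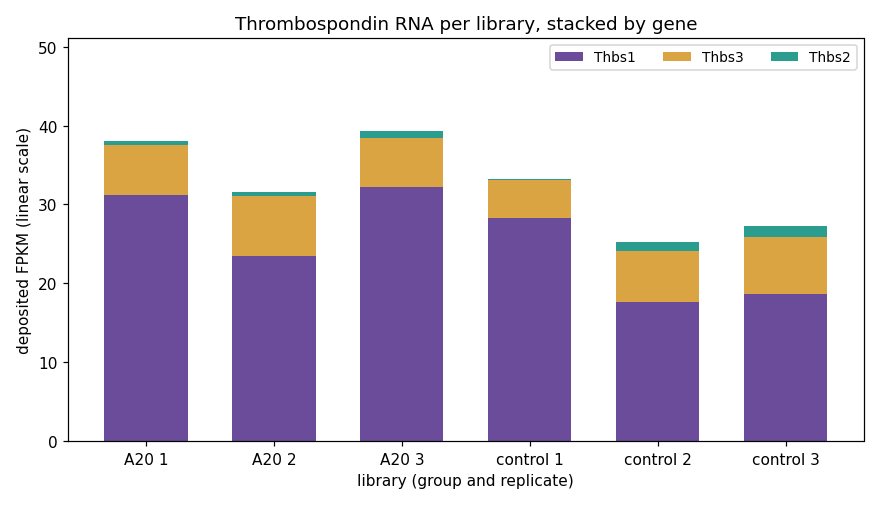
Deposited FPKM of Thbs1, Thbs3 and Thbs2 stacked in each library (vertical axis, linear), with A20-overexpressing libraries left and controls right. Thbs1 makes up most of each bar, from 68.2% in control replicate 3 to 85.1% in control replicate 1, and Thbs2 at most 5.33%.

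Tnc, the gene of tenascin-C, was lower in A20-overexpressing libraries than in control replicates 2 and 3 without passing the test. Tenascin-C is an integrin ligand that loosens the adhesion of cells to fibronectin and appears in repair and inflammation. The gene (ENSMUSG00000028364, chromosome 4, 63959785 to 64047015, minus strand) had 31.0, 18.3 and 33.8 CPM in A20-overexpressing replicates 1, 2 and 3, against 20.3, 39.1 and 86.0 CPM in control replicates 1, 2 and 3. Control replicate 3 was the highest library by far, and control replicate 1 lay inside the A20-overexpressing range. The log2 fold change was -0.80 ± 0.48 (SE, adjusted p = 0.609 in edgeR) with all 6 libraries and -1.20 ± 0.37 (SE, 95% interval -2.08 to -0.31, adjusted p = 0.131) without control replicate 1. Leaving out control replicate 3 as well brought it to -0.58 (adjusted p = 0.111), and leaving out control replicate 2 as well to -1.62 (adjusted p = 0.000974). Other settings in which Tnc passed included limma-voom (-1.15, adjusted p = 0.0375), edgeR without robust estimation (-1.20, adjusted p = 0.0286) and edgeR with no filter on low counts (-1.17, adjusted p = 1.61e-07).

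Spp1 and Postn, the other integrin ligands of low level, showed no call. Spp1 encodes osteopontin, a phosphoprotein that binds integrins and CD44. It had 15.4, 13.1 and 10.8 CPM in A20-overexpressing replicates 1, 2 and 3, against 35.0, 16.9 and 11.9 CPM in control replicates 1, 2 and 3. Control replicate 1 was the highest library and the rest overlapped. The log2 fold change of Spp1 (ENSMUSG00000029304, chromosome 5, 104435118 to 104441050, plus strand) was -0.64 ± 0.35 (SE, adjusted p = 0.576 in edgeR) with all 6 libraries and -0.18 ± 0.24 (SE, 95% interval -0.68 to 0.32, adjusted p = 0.718) without control replicate 1. Postn (ENSMUSG00000027750, chromosome 3, 54361109 to 54391037, plus strand) encodes periostin, a TGF-beta-induced protein of fibroblasts and bone. It had 0 counts in each A20-overexpressing library and 2, 1 and 0 counts in control replicates 1, 2 and 3. At 3 counts, the limit that a count of 0 allows, a gene would stand at 0.177 to 0.217 CPM in these libraries, a limit that covers counting error only. Postn was the 1 member removed by the filter on low counts.

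Fn1, Sparc, Ccdc80 and Fbln2, the 4 most abundant members, did not pass in either comparison, and their intervals without control replicate 1 were narrow. Fibronectin is the fibril on which cells pull through integrins. Fn1 (ENSMUSG00000026193, chromosome 1, 71585520 to 71653200, minus strand) had 12321, 9419 and 11858 CPM in A20-overexpressing replicates 1, 2 and 3, against 3640.3, 8878 and 13089.9 CPM in control replicates 1, 2 and 3. Control replicate 1 was the lowest library and control replicate 3 the highest. Its log2 fold change was 0.39 ± 0.45 (SE, adjusted p = 0.804 in edgeR) with all 6 libraries. Without control replicate 1 it was 0.00 ± 0.17 (SE), with an interval of -0.37 to 0.37. The antisense gene Apol7d overlaps one end of Fn1 and held 9 to 17 counts per library.

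Sparc encodes a calcium-binding glycoprotein that attaches to collagen and guides its deposition. Sparc (ENSMUSG00000018593, chromosome 11, 55394500 to 55423183, minus strand) had 3619.6, 3839 and 3767 CPM in A20-overexpressing replicates 1, 2 and 3, against 1572, 4538 and 3807 CPM in control replicates 1, 2 and 3. The A20-overexpressing libraries were the most uniform of any tested member, with a coefficient of variation of 2.99%. The log2 fold change was 0.17 ± 0.40 (SE, adjusted p = 0.913 in edgeR) with all 6 libraries and -0.20 ± 0.15 (SE, 95% interval -0.52 to 0.13, adjusted p = 0.492) without control replicate 1.

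Ccdc80 encodes a secreted protein that promotes adhesion to the matrix. Ccdc80 (ENSMUSG00000022665, chromosome 16, 45093402 to 45128077, plus strand) had 719, 644 and 869 CPM in A20-overexpressing replicates 1, 2 and 3, against 238, 594 and 781 CPM in control replicates 1, 2 and 3. The groups overlapped through control replicate 3. The log2 fold change was 0.46 ± 0.40 (SE, adjusted p = 0.729 in edgeR) with all 6 libraries and 0.08 ± 0.16 (SE, 95% interval -0.26 to 0.42) without control replicate 1.

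Fbln2 (ENSMUSG00000064080, chromosome 6, 91212455 to 91272540, plus strand) had 1148, 1275 and 1414 CPM in A20-overexpressing replicates 1, 2 and 3, against 416, 1042 and 1429 CPM in control replicates 1, 2 and 3. Here too the groups overlapped through control replicate 3. The log2 fold change was 0.41 ± 0.41 (SE, adjusted p = 0.774 in edgeR) with all 6 libraries and 0.02 ± 0.16 (SE, 95% interval -0.32 to 0.36) without control replicate 1. In fold terms the unadjusted intervals without control replicate 1 ran from 0.775 to 1.29 for Fn1 and 0.698 to 1.09 for Sparc. They ran from 0.837 to 1.34 for Ccdc80 and 0.804 to 1.28 for Fbln2. With all 6 libraries they were wider, at 0.644 to 2.66 for Fn1 and 0.603 to 2.1 for Sparc. Those of Ccdc80 and Fbln2 were then 0.731 to 2.6 and 0.692 to 2.54.

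**Figure D3:**
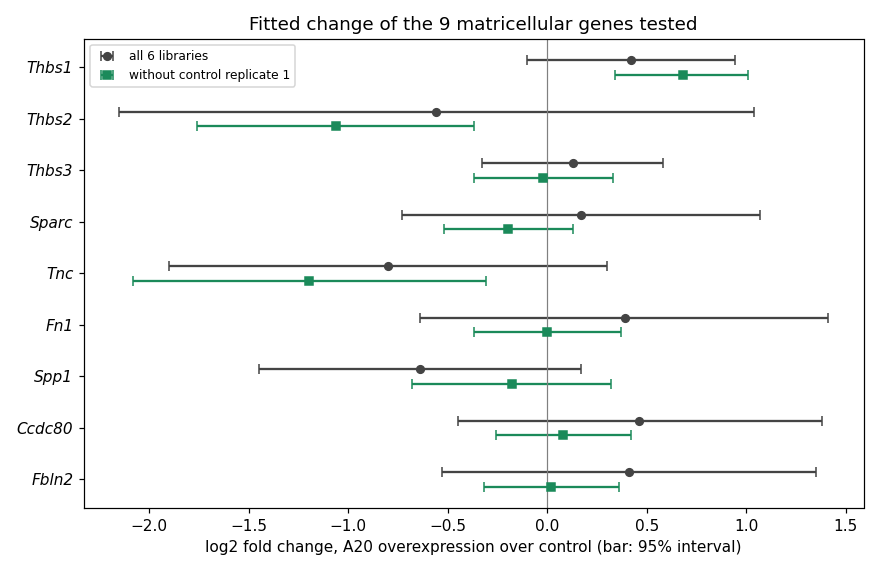
Fitted log2 fold change of A20 overexpression over control (horizontal axis, bars for the 95% interval) for the 9 members tested, with all 6 libraries (circles) and without control replicate 1 (squares). Without control replicate 1 the intervals of Thbs1 (0.34 to 1.01), Thbs2 (-1.76 to -0.37) and Tnc (-2.08 to -0.31) leave out 0 before adjustment, and those of the other 6 include it.

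Over the 9 members tested the median log2 fold change was 0.17 with all 6 libraries, beside -0.03 over all genes tested, and -0.02 without control replicate 1, beside 0.00. Of the members, 6 had values above 0 and 3 below with all 6 libraries, and 3 above and 6 below without control replicate 1.

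The members also set control replicate 1 apart. On the mean log2 CPM scale its level was over 2-fold below the other 5 libraries for Thbs2 (4.79-fold), Fn1 (3.37-fold), Fbln2 (3.36-fold), Ccdc80 (3.35-fold) and Sparc (2.77-fold), and over 2-fold above it for Spp1 (2.32-fold). Over all 13350 genes kept, 7.13% were over 2-fold below and 11.3% over 2-fold above in this library. Thbs2, Thbs3, Sparc, Fn1, Ccdc80 and Fbln2 lay below the range of the other 5 in CPM, as 21.7% of all genes did, and Spp1 lay above it, as 40.7% did. Thbs1 and Tnc lay within it. The median log2 ratio of control replicate 1 to the other 5 was -1.47 over the 9 members and 0.01 over all genes kept. This sets 1 library against 5 and carries no test. Among the other 5 libraries, the highest level was 1.23 times the lowest for Thbs3, 1.25 times for Sparc, 1.37 times for Fbln2 and 4.69 times for Tnc.

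Markers of fibroblasts and peritubular myoid cells, the matrix-rich neighbours of Leydig cells, were lowest in control replicate 1 as a sum, which Col1a1, Col1a2 and Col3a1 mostly made up. The summed level of 12 such markers was 16783 to 16970.3 CPM in A20-overexpressing libraries, against 4255 CPM in control replicate 1, and 13329 to 16335 CPM in control replicates 2 and 3. Acta2, a marker of myoid cells, went the other way, at 13.4 to 27 CPM in A20-overexpressing libraries, against 77.6 CPM in control replicate 1 and 18.9 to 39.2 CPM in the others. Cnn1 in control replicate 1, at 3.91 CPM, lay within the range of the other libraries, and Myh11 was highest there at 0.586 CPM. Lum was at 0 in every library, and Dcn was the 1 marker of the list past the test without control replicate 1, lower in A20-overexpressing libraries (44.3 to 52.2 CPM) than in control replicates 2 and 3 (145 and 231 CPM), and at 21.4 CPM in control replicate 1, with an adjusted p = 2.58e-06 in edgeR. With all 6 libraries Dcn did not pass (log2 fold change -1.50 ± 0.67, SE, adjusted p = 0.498). Summed macrophage markers were at 22.7 to 42.9 CPM in A20-overexpressing libraries and 5.93 and 32.6 to 34.7 CPM in control replicate 1 and the other controls, with Ptprc, Adgre1 and C1qa at 0 throughout. Csf1r and Cd14 in control replicate 1, at 0.521 and 1.69 CPM, lay within the range of the other libraries. Cd68 gave most of these sums, at 19.3 to 38.7 CPM in A20-overexpressing libraries, against 3.71 CPM in control replicate 1 and 30.1 to 30.6 CPM in the other controls. Summed Sertoli cell markers were at 132 to 148 CPM in A20-overexpressing libraries and 308 and 140 to 183 CPM in those controls, with Sox9 and Fshr at 0 and Clu lower in the A20-overexpressing libraries (9.1 to 13.3 CPM, against 221 CPM in control replicate 1 and 22.9 to 31.1 CPM in the others; adjusted p = 0.00288 in edgeR without control replicate 1). Clu did not pass with all 6 libraries (log2 fold change -2.93 ± 0.76, SE, adjusted p = 0.298). Clu gave most of the Sertoli sum in control replicate 1, and Gata1, at 9.45 CPM, was also highest there. Wt1 went the other way, at 77.5 CPM in control replicate 1. It was at 120.2 to 139 CPM in A20-overexpressing libraries and 117 to 152 CPM in control replicates 2 and 3. Summed endothelial markers were at 3.31 to 5.17 CPM in A20-overexpressing libraries and 36.7 and 3.97 to 4.55 CPM in those controls. Cdh5 alone gave 35.1 of the 36.7 CPM in control replicate 1, where Kdr and Tek were at 0 and Egfl7, at 1.04 CPM, was below the other libraries. Summed germ cell markers were at 8.08 to 12.2 CPM in A20-overexpressing libraries, against 9.77 and 6.13 to 8.24 CPM in those controls. The part of any of these in the members' levels was not tested, and in bulk RNA fewer cells of a type and less RNA per cell cannot be told apart.

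Genes related to the members held 6 calls by edgeR without control replicate 1. These were 2 of 10, 1 of 11, 1 of 16 and 2 of 20 genes kept in the 4 lists below, in their order. Beside them, 4.6% of all genes tested were called. The lists were chosen with earlier results of these data known, so a share above that of all genes is not independent support. With all 6 libraries edgeR called 0 of the listed genes, beside 0.015% of all genes, while DESeq2 called 4 (Ctgf, Wisp1, Itgb1 and Tgfbr2) and limma 0. At an unadjusted p under 0.05 in the 6-library edgeR fit were 5 of 10, 4 of 11, 3 of 16 and 1 of 20 genes of these lists, beside 10% of all genes. Smoc1, among the first of these, was at 38.4 CPM in control replicate 1 and at most 2.17 CPM in the other controls. Its edgeR p was 0.0124, and 0.142 without control replicate 1. In the fit without control replicate 1 there were 4 of 10, 3 of 11, 5 of 16 and 5 of 20 genes, beside 21.6% of all genes. Among 27 other matricellular genes, 10 were kept, of which 2 rose, 0 fell and 8 did not pass, with a median log2 fold change of 0.33. Ctgf, a CCN family protein, rose 2.03-fold (169 CPM ± 39.9 in A20-overexpressing libraries, SD, n = 3, and 81.5 CPM ± 17.3 in controls, SD, n = 2; adjusted p = 0.00525 in edgeR). Wisp1, of the same family, rose 1.56-fold (adjusted p = 0.0319). In both genes control replicate 1, at 97.9 and 115 CPM, also lay below the lowest A20-overexpressing library, at 144 and 167 CPM. With all 6 libraries their log2 fold changes were 0.99 ± 0.20 (SE, adjusted p = 0.202) and 0.73 ± 0.18 (SE, adjusted p = 0.278). Wisp1 lost its call in edgeR without control replicate 2 or any single A20-overexpressing library (adjusted p = 0.0659 to 0.208). In the 3 limma-trend fits on FPKM neither passed, with an adjusted p of 0.0514 to 0.054 for Ctgf and 0.103 to 0.108 for Wisp1.

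Of 19 receptors of matricellular proteins, 11 were kept, with 1 higher, 0 lower, 10 not past and a median of 0.12. Itgb1, the integrin beta chain shared by the main fibronectin receptors, rose 1.94-fold. It stood at 1858 to 2249 CPM in the A20-overexpressing libraries, against 1010.2 CPM in control replicate 1 and 916 to 1131 CPM in control replicates 2 and 3. Its log2 fold change was 1.02 ± 0.20 (SE, adjusted p = 0.205 in edgeR) with all 6 libraries and 0.96 ± 0.16 (SE, adjusted p = 0.00392) without control replicate 1, where it stayed past the threshold in each of 17 other settings (adjusted p at most 0.0439). Of the thrombospondin receptors, named outside the rule after their values were seen, Cd36 had no count in 5 libraries and stood at 46.8 CPM in control replicate 1, and Cd47 was at 139 to 167 CPM in A20-overexpressing libraries and at 261 and 138 to 168 CPM in control replicate 1 and the other controls.

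In the TGF-beta axis all 16 genes were kept, with 1 higher, 0 lower and 15 not past, and a median of 0.22. Tgfbr2, the receptor subunit that binds TGF-beta first, rose 1.64-fold (135 CPM ± 20.5 in A20-overexpressing libraries, SD, n = 3, and 80.6 CPM ± 18.0 in controls, SD, n = 2; adjusted p = 0.0192 in edgeR). Control replicate 1, at 88.7 CPM, lay below the lowest A20-overexpressing library, at 112 CPM. The 6-library adjusted p was 0.269, and the call was lost in edgeR without control replicate 2 (adjusted p = 0.0678) or A20-overexpressing replicate 1 or 3 (0.0945 and 0.122), and in the 3 limma-trend fits on FPKM (0.0852 to 0.0867).

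Of 21 assembly partners and proteases 20 were kept, with 0 higher, 2 lower, 18 not past and a median of -0.05. Plat, the tissue plasminogen activator, fell by 0.80 on the log2 scale (21.0 CPM ± 2.30 in A20-overexpressing libraries, SD, n = 3, and 35.6 CPM ± 1.96 in controls, SD, n = 2; adjusted p = 0.0161 in edgeR). Mmp14, a membrane-bound protease that cuts fibronectin and collagen, fell by 0.52 (adjusted p = 0.0481). Control replicate 1, at 10.2 CPM for Plat and 107 CPM for Mmp14, lay below each A20-overexpressing library in both genes. Their 6-library adjusted p was 0.811 and 0.846. Plat lost its call in edgeR without control replicate 2 or A20-overexpressing replicate 1 or 3 (adjusted p = 0.0522 to 0.109) and in the 3 limma-trend fits on FPKM (0.0755 to 0.0794), and Mmp14 without control replicate 3 or any single A20-overexpressing library (0.0913 to 0.191). Mmp14 also missed the threshold with upper-quartile factors, library size alone, no robust estimation and in limma (0.0536 to 0.12). It passed in 5 of the 17 other settings without control replicate 1. Col1a1, Col1a2 and Col3a1 of this list were also in the fibroblast list. Col1a1 was at 6641 to 7149 CPM in the A20-overexpressing libraries, against 1410.3 CPM in control replicate 1 and 4181 to 5461 CPM in the others, and did not pass (adjusted p = 0.548 with all 6 libraries and 0.0803 without control replicate 1).

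**Figure D4:**
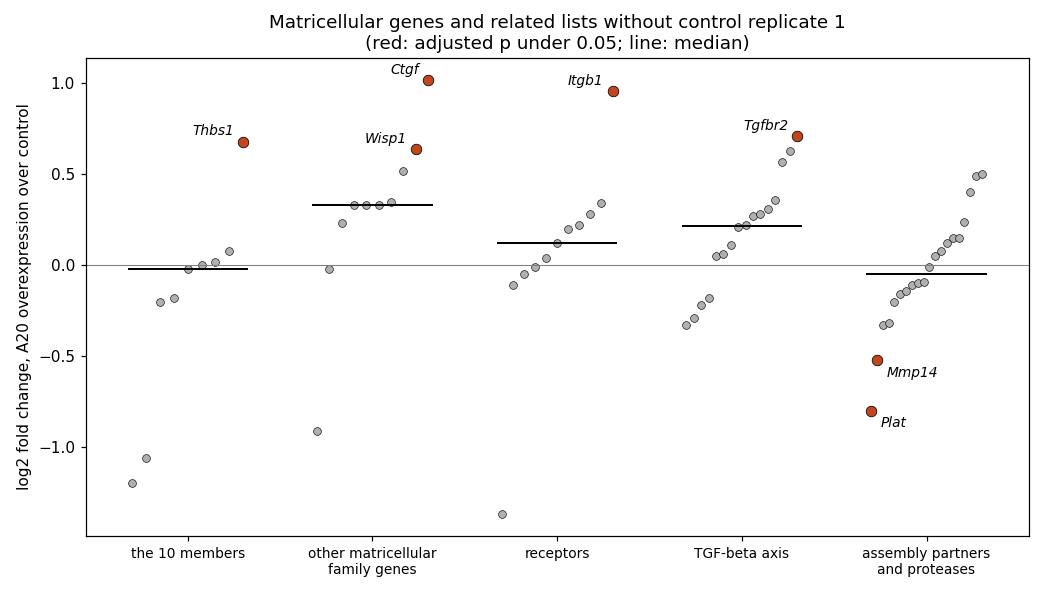
Log2 fold change of A20 overexpression over control without control replicate 1 (vertical axis) for each gene tested in the members and the 4 related lists, with lines at the list medians and red points for genes past edgeR's test. Medians are -0.02, 0.33, 0.12, 0.22 and -0.05, beside 0.00 over all genes tested, and 5 of the 7 red points lie above 0.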

How the data were processed

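RNA of TM3 cells was sequenced after a column kit extraction and a SMARTER mRNA library kit, per the labels' protocols. The deposited count table holds whole-number read counts per gene. The build was GRCm38, also named mm10, per the submitters' processing notes. The aligner, counter and strand setting are not given in the sources used here. The deposited FPKM equal the count per kilobase of gene length and per library size scaled by the authors.

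Groups were tested with edgeR 4.0.16 (R 4.3.3): quasi-likelihood F test, TMM factors, default filter by group, robust fitting, group alone, Benjamini-Hochberg adjustment over all genes kept, threshold 0.05. CPM use the library's total. Standard errors are the log2 fold change over the root of F, and intervals use that error. Alternatives used DESeq2 1.42.0 and limma 3.58.1. Levels between genes are compared in FPKM only. All 10 members are named, with up to 4 called genes of each related list, Tnfaip3, and the cell type markers whose presence or absence is stated. Dcn, Clu, some of the markers that carried or went against a list's sum, Col1a1, Cd36 and Cd47 were named after their values were seen. The members and lists were chosen with earlier results of these data known. On data simulated for 13658 genes without control replicate 1, edgeR recovered 81% of genes changed 2-fold. With all 6 libraries, on 13350 genes, it recovered 48%. False calls among the unchanged genes were 5 without control replicate 1 and 15 with all 6 libraries. Only 2-fold and 4-fold changes of genes above a minimum level were simulated, so smaller changes are not covered. Apart from the planted changes, each simulated library was drawn on its own around 1 mean per gene. The way control replicate 1 stood apart across many genes was thus not modelled. The recovered shares therefore do not give the power in the real libraries, where the 6-library fit called 2 genes. Precision is limited by 13841287 to 16917979 counts per library and 3 libraries a group.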

Additional observations from a re-analysis of the deposited data

How the results depend on the processing

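With all 6 libraries edgeR called 2 genes, and 0 with upper-quartile factors, library size alone, no robust estimation, limma-voom or limma-trend on FPKM (either pseudocount, or genes averaging under 1 FPKM left out), against 23 with no filter on low counts and 183 in DESeq2. Leaving out single libraries gave 0 to 628. Members called were 0 to 1 and related-list genes 0 to 6 over these libraries left out, with 4 related-list genes in DESeq2. Without control replicate 1 edgeR called 628 genes, 1173 with no filter, and 235, 177 and 158 in limma-trend on log2(FPKM + 1), on log2(FPKM + 0.1) and with genes averaging under 1 FPKM left out. Leaving out a further library gave 142 to 2423. Members called were then 3 with no filter (Thbs1, Thbs2 and Tnc), 2 without robust estimation or in limma-voom (Thbs1 and Tnc), 0 in limma-trend on FPKM, and 0 to 2 over the libraries left out. Related-list genes called were 6, 1 in each limma-trend fit and 2 to 12 over the libraries left out. The cause of these differences was not tested. Where 1 control is left, the lone sample is assumed to vary like the other libraries.

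Signs of values near 0 turned. Without control replicate 1, Fn1 was at 0.01 with upper-quartile factors, limma-voom and limma-trend and at 0.03 with library size alone or no filter, with -0.21 to 0.26 over the libraries left out. Thbs3 was at 0.01 with library size alone, no filter or the replicate block, with -0.12 to 0.06 over the libraries left out. Spp1 ran from -0.45 to 0.15, Ccdc80 from -0.06 to 0.25 and Fbln2 from -0.15 to 0.22 in the same way. With all 6 libraries the range over libraries left out was -0.02 to 0.26 for Thbs3, -0.20 to 0.53 for Sparc, 0.00 to 0.82 for Fn1 and -0.52 to 0.09 for Mmp14.

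Correlations of deviations from the group means were 0.03, 0.11 and -0.04 for same-numbered replicates 1, 2 and 3. Other pairs of a control and an A20-overexpressing library ran from -0.19 to 0.16. The control mean included control replicate 1, which stood apart, so these values cannot decide whether same-numbered samples were prepared together. With the replicate block, edgeR called 2 genes with all 6 libraries and 797 without control replicate 1, and 0 and 2 members, Thbs1 and Tnc, where Tnc had an adjusted p = 1.94e-06. Levels of Thbs2 rest on 18 to 142 counts per library, which limits their precision.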
